A study of Homo sapiens with 2 samples.

Results

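The matrix metalloproteases (MMPs), the ADAMs, the ADAMTS proteases with the related ADAMTSL proteins, and the tissue inhibitors of metalloproteases (TIMPs) were followed in the TSG101-knockdown osteosarcoma line Saos-2-2 and its parental line Saos-2. Members were chosen by gene symbol, as every clone of a spotted cDNA array whose symbol belongs to 1 of these families. The spot also had to be marked usable by the scanner software. The rule uses no ratio between the lines, but the mark belongs to the scanned spot and can depend on its signal. The rule gave 48 genes of 13757 genes with a usable spot, made up of 17 MMP, 14 ADAM, 9 ADAMTS, 5 ADAMTSL and 3 TIMP genes on 79 clones. Of these, 47 genes on 74 clones could be tested on both arrays. ADAMTS6 was usable on 1 array only, where its log2 ratio was -0.14, and all spots of ADAM18, ADAMTS12, ADAMTS14 and ADAMTS15 were unusable.

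Each of 2 biological replicates was 1 array, to which RNA of both lines was hybridized together. The dyes were not swapped, Cy5 always marking Saos-2-2 and Cy3 the parental cells, so that dye and line cannot be told apart. Saos-2 is a human osteosarcoma line without an shRNA, and Saos-2-2 is a line derived from it that constitutively expresses an shRNA against TSG101 and was isolated by puromycin resistance and GFP fluorescence. Both were grown in DMEM with 10% fetal bovine serum. Saos-2-2 is a clone and the comparison holds no line with a control shRNA, so that the knockdown and the isolation of a clone cannot be told apart either. All log2 ratios are of Saos-2-2 over Saos-2, so that a negative value means less signal in Saos-2-2, and errors are moderated standard errors of limma over the 2 arrays.

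MMPs are secreted or membrane-bound zinc proteases that cut collagens, gelatin and other matrix proteins, and most are made as inactive precursors. ADAMs are membrane proteases that release the outer part of other membrane proteins, a step called shedding, while ADAMTS proteases are secreted and cut proteoglycans or procollagens. TIMPs bind the active site of MMPs and of some ADAMs and block it. In bone, collagenase and gelatinase activity takes part in the turnover of matrix, and the same enzymes are studied in the invasion of osteosarcoma.

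TSG101 itself, the knocked-down gene, had log2 ratios of -0.49 and -0.24 on replicates 1 and 2 (mean -0.36, adjusted p = 0.201 in limma). Its signal was 10.8 and 9.98 times local background in Saos-2 and 6.78 and 8.16 times in Saos-2-2, lower in the knockdown line on both arrays. Over all tested genes the median log2 ratio was -0.02, and the ratios of the 2 arrays correlated across 34675 probes with a Pearson r of 0.49, probes not being independent replicates. The precision is that of 2 arrays. No probe of any gene passed an adjusted p of 0.05 in limma with Benjamini-Hochberg adjustment over all probes, while without adjustment 4666 probes had a p under 0.05 with a ratio above 0 and 3365 with a ratio below 0. Of 9 measured osteoblast-lineage markers, RUNX2 had a signal of 14.7 to 17.2 times background in all 4 channels, but 5, among them COL1A1, COL1A2 and SPARC, were below 0 on replicate 1 and above 0 on replicate 2. The epithelial markers EPCAM, CDH1, KRT5 and KRT14 were 3.44 to 31.5 times background, while the haematopoietic markers PTPRC and CD3D stayed at 1.59 to 2.71 times background and CD14 reached 12.5.

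The members, which include inhibitors and genes without protease activity, lay lower in Saos-2-2 more often than higher. None of the 47 tested genes passed an adjusted p of 0.05, against 0.0% of all genes, and the smallest adjusted p among them was 0.106 (limma, Benjamini-Hochberg). At an unadjusted p under 0.05, 14 of 47 members (29.8%) were lower, where 11.3% of all 13284 tested genes were, and 2 (4.26%) were higher, where 11.9% of all genes were. The log2 ratio was below 0 on both arrays for 26 members (55.3%), against 36.4% of all genes, and above 0 on both for 8 (17.0%), against 32.4%. A log2 ratio of -1 or lower on both arrays was found for ADAM12, ADAMTS5 and ADAMTS1, 3 members (6.38%) against 0.504% of all genes. The median over the members was -0.14, with -0.17 on replicate 1 and -0.20 on replicate 2. These are descriptions of 2 arrays, and no test of the set was made.

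**Figure D1:**
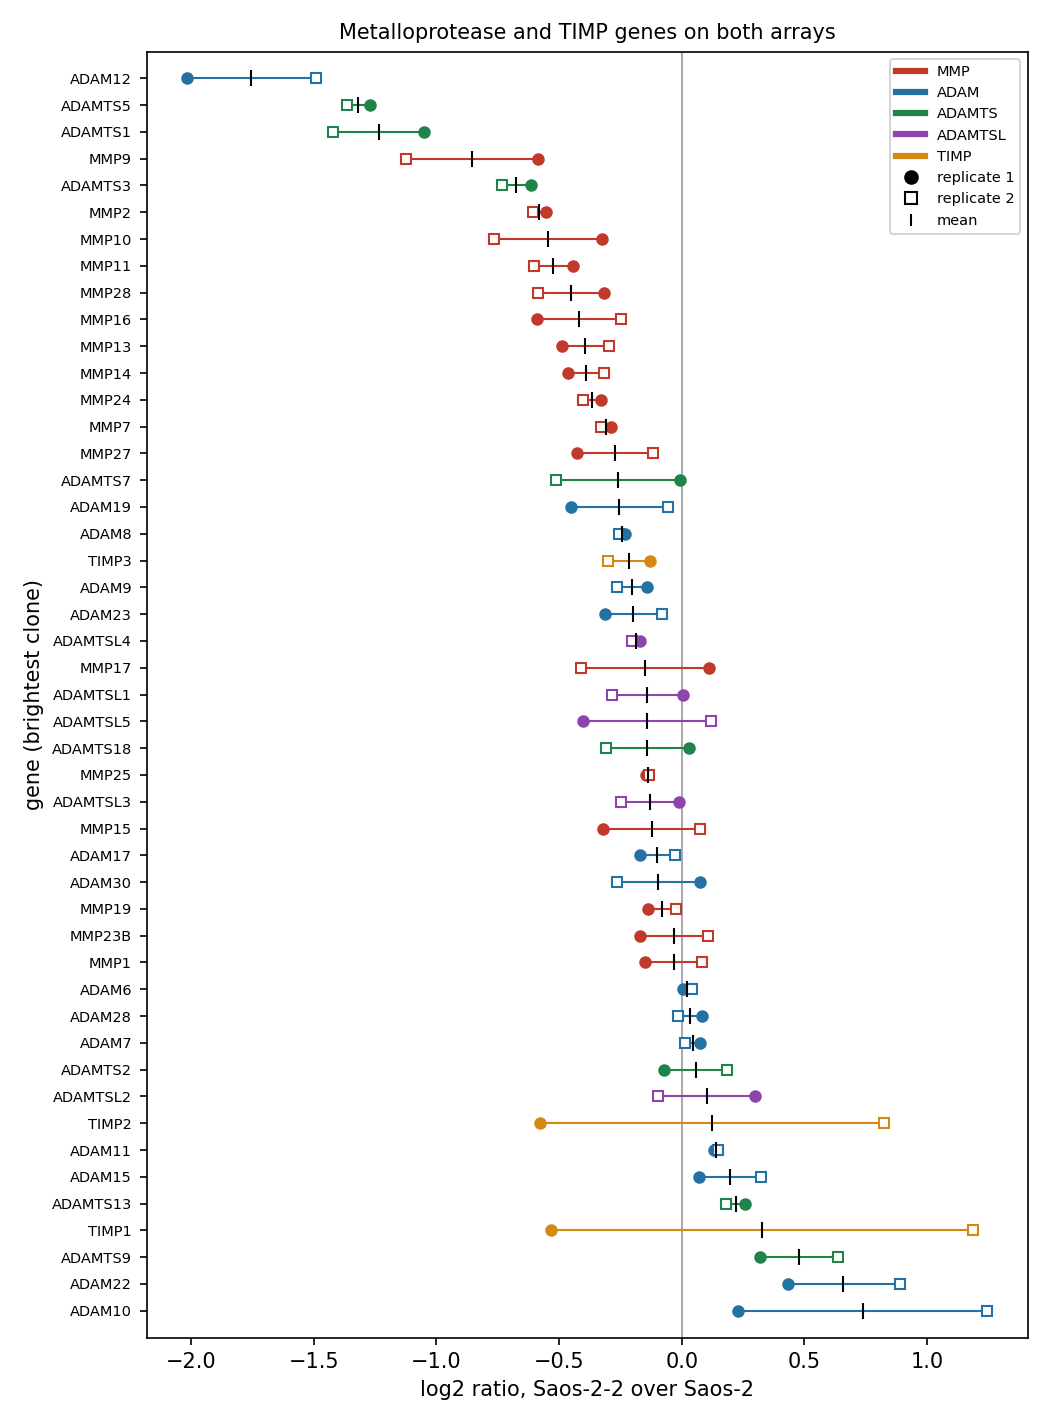
Log2 ratio of Saos-2-2 over Saos-2 for the 47 tested genes, each by its brightest clone, with filled circles for replicate 1, open squares for replicate 2 and a tick for their mean, coloured by family. ADAM12, ADAMTS5 and ADAMTS1 lie at the low end on both arrays, and TIMP1 and TIMP2 span 0, with replicate 1 below it and replicate 2 above it.

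The families were placed as follows. All 17 MMP genes had a mean log2 ratio below 0, from -0.86 for MMP9 to -0.03 for MMP1, where 52.4% of all genes were below 0, although normalization by print tip placed MMP1, MMP17 and MMP23B above 0, the median foreground placed MMP1 there and the mean over all clones placed MMP23B there. Of the 17, 13 were below 0 on both arrays, where 36.4% of all genes were, and their median was -0.37. At an unadjusted p under 0.05, 10 were lower and none was higher, beside 11.3% and 11.9% of all genes. With normalization by print tip 8 were lower, beside 10.7% of all genes. With median centring 7 were lower, beside 14.5% of all genes. The clone of MMP27 and the brightest clone of MMP17 carried a mark in the file's column of failed wells. Without marked wells 16 MMP genes could be tested, and all 16 were below 0. Of 14 ADAM genes 7 were below 0, with a median of -0.04 and a range from -1.75 to 0.74. Of 8 tested ADAMTS genes 5 were below 0, 3 were lower and 1 was higher at an unadjusted p under 0.05. The 5 ADAMTSL genes, which resemble ADAMTS proteases but lack the catalytic part, ranged from -0.19 to 0.10 and none reached that threshold. No test of the difference between families was made.

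**Figure D2:**
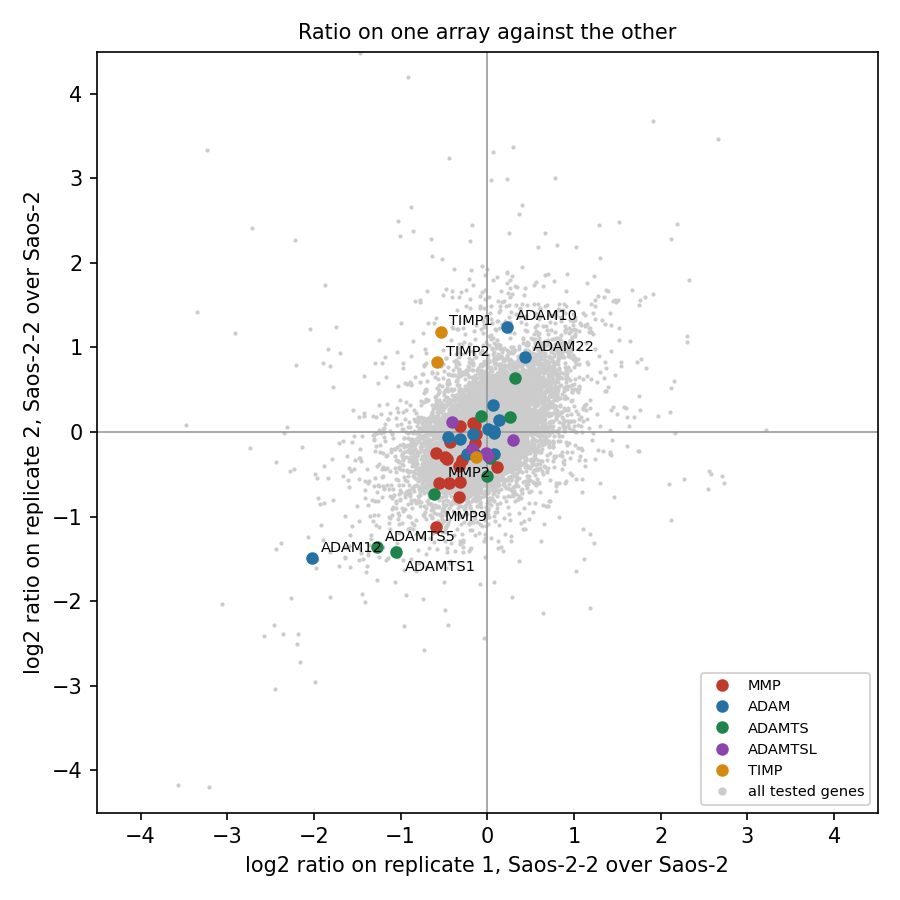
Log2 ratio on replicate 2 against that on replicate 1 for all tested genes (grey) and for the members (coloured by family), both axes in log2 units of Saos-2-2 over Saos-2. The lower left holds ADAM12, ADAMTS5, ADAMTS1 and MMP9, while TIMP1 and TIMP2 lie in the upper left, below 0 on replicate 1 and above 0 on replicate 2.

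The gelatinases, which cut denatured collagen and basement membrane collagen, were both lower in Saos-2-2. The brightest clone of MMP2 (gelatinase A) had net intensities, in scanner units above local background, of 5616 and 5479 in Saos-2 and of 3219 and 3475 in Saos-2-2 on replicates 1 and 2. On each array the Saos-2-2 value was the lower one. The log2 ratios were -0.55 and -0.61 (mean -0.58 ± 0.10, 0.669 of the Saos-2 level, adjusted p = 0.118 in limma), and a further clone of the gene gave -0.70 and -1.02. With the deposited log2 ratios in place of normalized intensities, MMP2 was at -0.94 with an adjusted p of 0.0478 in limma. In that setting 4.66% of all genes passed 0.05. Over the 14 settings tried MMP2 lay between -0.94 and -0.46, with adjusted p from 0.0478 to 0.153 in limma. MMP9 (gelatinase B) had mean net intensities over 3 spots of 432 and 348 in Saos-2 and of 258 and 159 in Saos-2-2. Its log2 ratios were -0.59 and -1.12 (mean -0.86 ± 0.17, 1.81-fold lower, adjusted p = 0.128 in limma). Each of the 3 spots was lower on both arrays, but a dimmer clone of MMP9 was at -0.14 and -0.22, and the mean over both clones was -0.52.

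The collagenases cut fibrillar collagen, and the difference between MMP13 and MMP1 was not tested. MMP13 (collagenase 3), which acts in bone and cartilage, had net intensities of 57 in Saos-2 on both arrays and of 32 and 53 in Saos-2-2. These are dim signals of 1.73 to 2.39 times background, and the log2 ratios were -0.49 and -0.30 (mean -0.39 ± 0.11, adjusted p = 0.174 in limma). MMP1 (interstitial collagenase) lay at -0.15 and 0.08, with a mean of -0.03 ± 0.12, and its sign turned in 2 alternative settings. MMP3 and ADAMTS4 were not analysed here.

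Stromelysin 2 and matrilysin cut a wide range of non-collagen matrix proteins, and the genes of both and of stromelysin 3 were also below 0. MMP10 (stromelysin 2) had log2 ratios of -0.32 and -0.76 (mean -0.54 ± 0.15, adjusted p = 0.169 in limma), from net intensities of 162 and 163 in Saos-2 against 123 and 96 in Saos-2-2. MMP11 (stromelysin 3) had -0.44 and -0.60 (mean -0.52 ± 0.11, adjusted p = 0.134 in limma). The net intensities of MMP11 were 124 and 100 in Saos-2 and 85 and 68 in Saos-2-2. MMP7 (matrilysin) was read from 4 spots of 1 clone at 1.78 to 2.07 times background, with log2 ratios of -0.29 and -0.33 (mean -0.31 ± 0.10). Of its 4 spots, 1 went the other way on both arrays.

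MMP10 and MMP7 both lie on chromosome 11, where MMP1 is the protein-coding gene next to MMP10. Their promoters are shown because they were the only ones among the 29 member promoters found in the RefSeq table that held the AP-1 motif, searched as TGANTCA. The other tested members, among them MMP1, MMP2, MMP9, MMP13, ADAMTS1, ADAMTS5 and TIMP2, had no promoter there and were not searched. The AP-1 motif occurred in 5.36% of 22199 protein-coding promoters of 250 bases. In both genes a match started 67 bases before the transcription start, and a TATA motif, searched as TATAAA and present in 9.0% of promoters, started 31 bases before it in MMP10 and 30 bases before it in MMP7. Each motif was searched on both strands, and none of the 5 motifs searched contains another. The sequences are the 250 bases upstream of the start in RefSeq on GRCh38.p14, 5′ to 3′ on the gene's strand, with the matches to these motifs in capitals. MMP10 lies at chr11:102780629-102780878 and MMP7 at chr11:102530748-102530997, both on the minus strand.
MMP10: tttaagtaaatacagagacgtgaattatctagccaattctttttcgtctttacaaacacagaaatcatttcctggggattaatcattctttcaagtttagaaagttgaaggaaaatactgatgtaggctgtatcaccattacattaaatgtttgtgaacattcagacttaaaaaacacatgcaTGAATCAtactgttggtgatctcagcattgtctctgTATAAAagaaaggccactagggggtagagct
MMP7: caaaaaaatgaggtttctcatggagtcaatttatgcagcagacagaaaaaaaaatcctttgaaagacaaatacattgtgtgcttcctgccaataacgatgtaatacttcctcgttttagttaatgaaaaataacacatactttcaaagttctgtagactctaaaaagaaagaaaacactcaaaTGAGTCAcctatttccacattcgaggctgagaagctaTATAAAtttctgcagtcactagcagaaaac
These matches describe the letters only. Among 13 measured AP-1, ETS and RUNX2 factors from a fixed list of 14, JUN at -0.73 and FOSL2 at -0.75 were lower and FOS at 0.80 was higher at an unadjusted p under 0.05, beside 11.3% and 11.9% of all genes, none passed the adjusted threshold, and the median of the 13 was 0.02.

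The membrane-type MMPs are held at the cell surface, by a transmembrane segment or by a lipid anchor. MMP14, which activates the precursor of MMP2, had log2 ratios of -0.46 and -0.32 (mean -0.39 ± 0.11, adjusted p = 0.167 in limma). Its net intensities were 108 and 93 in Saos-2 and 72 and 86 in Saos-2-2. The transmembrane members MMP16 at -0.42 and MMP24 at -0.37 were also lower at an unadjusted p under 0.05, MMP15 at -0.12 was not, and the lipid-anchored MMP17 and MMP25 were at -0.15 and -0.14. MMP16, read from 2 spots, had log2 ratios of -0.59 and -0.25. Its net intensities before normalization were 106.5 and 97 in Saos-2 and 60.5 and 98.5 in Saos-2-2, so that on replicate 2 the lines hardly differed. Of the remaining MMPs, MMP28 (epilysin) was lowest, at -0.32 and -0.59 (mean -0.45 ± 0.12, adjusted p = 0.165 in limma). MMP19 and MMP23B had clones of both signs: the clones of MMP19 were at -0.08 and 0.04 and those of MMP23B at -0.03, 0.15 and 0.26. MMP23B has a near-identical copy in the genome, so that its signal may be shared.

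ADAM12 stood lowest of all members. It is a membrane protease of mesenchymal and muscle cells that cuts insulin-like growth factor binding proteins. Its brightest clone had net intensities of 634 and 657 in Saos-2 and of 114 and 224 in Saos-2-2 on replicates 1 and 2. The Saos-2-2 signal was well below that of the parental line on both arrays. The log2 ratios were -2.02 and -1.49 (mean -1.75 ± 0.17, 3.37-fold lower, adjusted p = 0.106 in limma). The clone's accession is an entry of the gene table the study drew from these arrays, so that this value is not independent of it. Of 6 tested clones, 5 were below 0 on both arrays, at -1.75, -1.67, -1.65, -0.85 and -0.68. The sixth, which was dim at 1.76 to 2.10 times background, was at -0.04 and 0.13. Averaging the clones gave -1.09. With the deposited log2 ratios ADAM12 was at -2.29 with an adjusted p of 0.0245 in limma, a setting where 4.66% of all genes passed 0.05. Over the 14 settings its adjusted p ran from 0.0245 to 0.153 in limma.

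The promoter of ADAM12 is shown because this gene had the lowest ratio. It covers chr10:126388478-126388727 on the minus strand of GRCh38.p14 (RefSeq), upstream of the start, with capitals at matches to the SP1 motif searched as GGGCGG on both strands.
ADAM12: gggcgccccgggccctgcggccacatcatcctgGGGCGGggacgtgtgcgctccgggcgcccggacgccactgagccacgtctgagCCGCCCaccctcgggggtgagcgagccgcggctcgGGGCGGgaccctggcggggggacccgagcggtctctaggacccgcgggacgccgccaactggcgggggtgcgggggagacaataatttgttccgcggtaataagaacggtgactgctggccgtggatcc
It held 3 such matches and neither the AP-1 nor the TATA letters. The SP1 motif was in 23 of the 29 matched member promoters and in 53.7% of all promoters. The letters TGTGGT, bound by RUNX factors, were in the promoters of ADAM19, MMP14, MMP23B and TIMP1 and in 9.36% of all promoters. The letters GGAATG, bound by TEAD factors, were in that of ADAM17 and in 10.5% of all promoters.

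**Figure D3:**
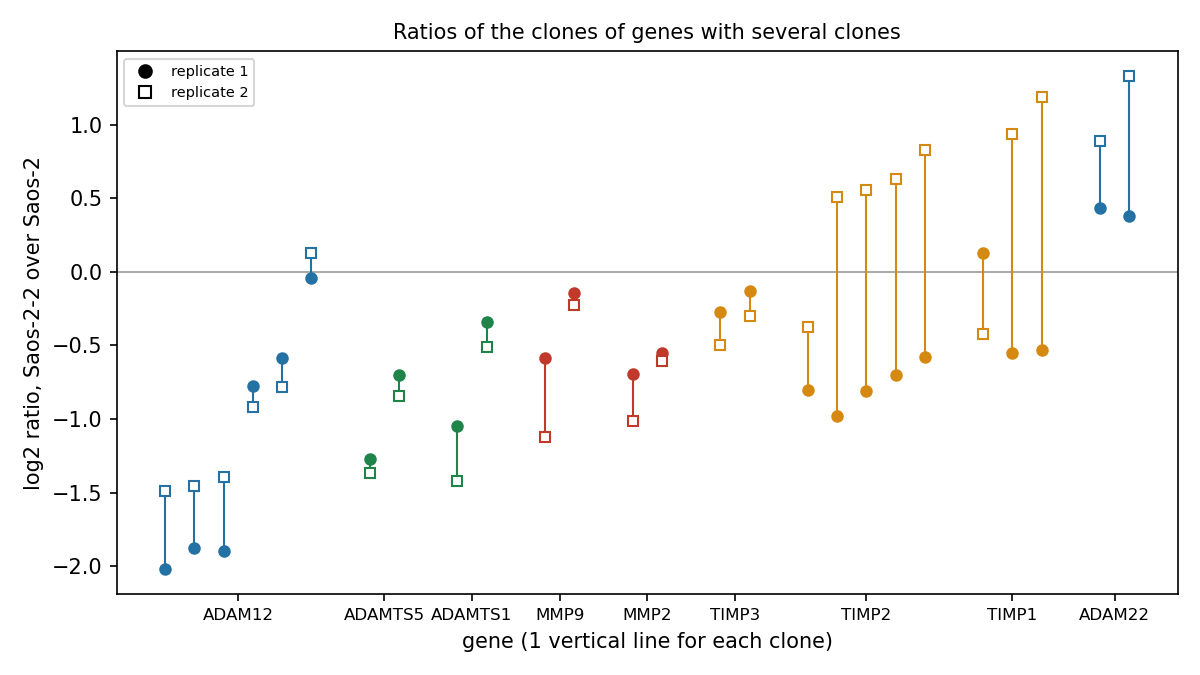
Log2 ratio of Saos-2-2 over Saos-2 for each tested clone of 9 genes with several clones, with filled circles for replicate 1 and open squares for replicate 2 joined by a line. The clones of ADAM12, ADAMTS5, ADAMTS1, MMP9 and MMP2 lie below 0 on both arrays apart from 1 clone of ADAM12, whereas 4 of 5 TIMP2 clones and all 3 TIMP1 clones change sign between the arrays.

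The sheddases ADAM10 and ADAM17, which release growth factor precursors, NOTCH receptors and cytokines from the cell surface, did not reach an unadjusted p under 0.05 in their brightest clones, and the difference between them was not tested. ADAM10 had the highest mean among the brightest clones, at 0.74 ± 0.28, but its log2 ratios of 0.23 and 1.25 differed by 1.02 (adjusted p = 0.237 in limma). Its net intensity was 940 and 717 in Saos-2 and 989 and 1830 in Saos-2-2, so that the excess came almost wholly from replicate 2. The ADAM10 spot also carried a mark in the file's column of failed wells, whose code is not explained in the sources used here, and its part in the result was not tested. Of the member spots, 8 carried this code: that of ADAM10, both of ADAMTS13, and 1 each of ADAMTS7, ADAMTSL1, ADAMTSL2, MMP17 and MMP27. A spot of MMP1 carried another code. ADAM17 was at -0.17 and -0.03 (mean -0.10 ± 0.11), and a dimmer clone was at -0.48 and -0.26 (adjusted p = 0.192 in limma). ADAM9 was at -0.14 and -0.26 (mean -0.20 ± 0.11, adjusted p = 0.329 in limma). ADAM19 had a clone at -0.25 and a dimmer one at 0.01. The remaining ADAMs with an active site ranged from -0.24 for ADAM8 to 0.20 for ADAM15.

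Of the 4 ADAMs without an active site, which act by binding other proteins, ADAM22 was higher. ADAM22 binds the secreted neuronal protein LGI1 and is best known from brain. Its brightest clone had net intensities of 132 and 117 in Saos-2 and of 195 and 293 in Saos-2-2. The log2 ratios were 0.43 and 0.89 (mean 0.66 ± 0.16, 1.58-fold higher, adjusted p = 0.146 in limma), and the other clone gave 0.38 and 1.33. ADAM23, ADAM7 and ADAM11 lay between -0.20 and 0.14, and the human pseudogene ADAM6 was at 0.02. The promoter of ADAM22, shown because this gene had the highest ratio among members at an unadjusted p under 0.05, covers chr7:87934001-87934250 on the plus strand of GRCh38.p14 (RefSeq) and is given upstream of the start with SP1 matches in capitals.
ADAM22: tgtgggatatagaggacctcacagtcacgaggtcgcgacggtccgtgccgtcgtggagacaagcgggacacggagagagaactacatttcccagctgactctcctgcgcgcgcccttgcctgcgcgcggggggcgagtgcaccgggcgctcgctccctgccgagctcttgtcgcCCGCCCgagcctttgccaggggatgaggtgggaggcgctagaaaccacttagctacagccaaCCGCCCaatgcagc
It held 2 SP1 matches and none of the other motifs searched.

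The ADAMTS proteases that cut aggrecan and versican, the large proteoglycans of cartilage and connective tissue, were split. ADAMTS5, the major aggrecanase of mouse cartilage, had net intensities of 247 and 221 in Saos-2 and of 77 and 73 in Saos-2-2. The lines were far apart on both arrays, with log2 ratios of -1.27 and -1.36 (mean -1.32 ± 0.10, 2.49-fold lower, adjusted p = 0.106 in limma). A dimmer clone of ADAMTS5 was at -0.70 and -0.84, and with the deposited log2 ratios the gene was at -1.99 with an adjusted p of 0.0245 in limma. There 4.66% of all genes passed 0.05, and over the 14 settings the adjusted p of ADAMTS5 ran from 0.0245 to 0.153 in limma.

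ADAMTS1, the protein-coding neighbour of ADAMTS5 on chromosome 21, had net intensities of 327 and 325 in Saos-2 and of 130 and 109 in Saos-2-2. The log2 ratios were -1.05 and -1.42 (mean -1.23 ± 0.14, 2.35-fold lower, adjusted p = 0.106 in limma). A dimmer clone of ADAMTS1 was at -0.34 and -0.51, and the deposited log2 ratios gave -1.69 with an adjusted p of 0.0274 in limma. Again 4.66% of all genes passed 0.05 there, and over the 14 settings the adjusted p of ADAMTS1 ran from 0.0274 to 0.153 in limma. ADAMTS9, which also cuts versican, went the other way. Its net intensities were 52 and 47 in Saos-2 and 85 and 126 in Saos-2-2, with log2 ratios of 0.32 and 0.64 (mean 0.48 ± 0.13, adjusted p = 0.165 in limma). These are dim signals of its only clone, at 1.94 to 3.07 times background.

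**Figure D4:**
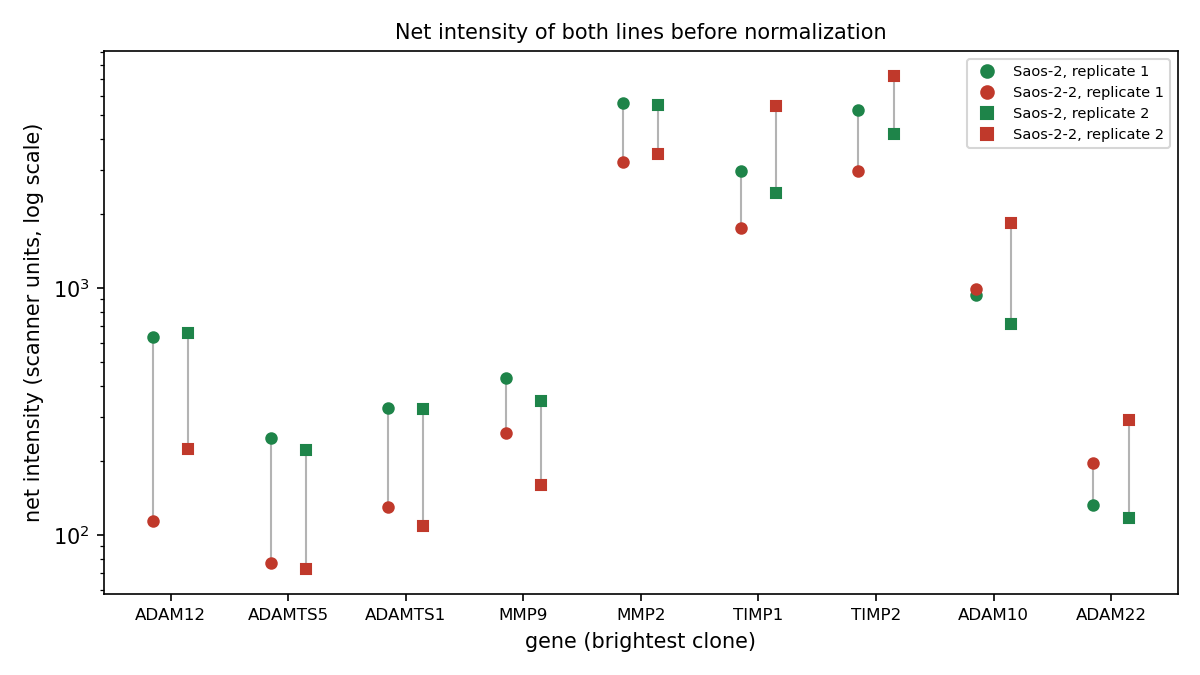
Net intensity in scanner units on a log scale, before normalization, of the brightest clone of 9 genes in Saos-2 (green) and Saos-2-2 (red) on replicate 1 (circles) and replicate 2 (squares). Saos-2-2 lies below Saos-2 on both arrays for the first 5 genes, whereas TIMP1 and TIMP2 lie below on replicate 1 and above on replicate 2, and levels of different genes are not comparable.

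ADAMTS2 and ADAMTS3 remove the amino-terminal propeptide of fibrillar procollagens. ADAMTS3 was lower, at -0.61 and -0.73 (mean -0.67 ± 0.11, adjusted p = 0.111 in limma), from net intensities of 90 and 101 in Saos-2 and of 49 and 59 in Saos-2-2. ADAMTS2 was at -0.07 and 0.19, with a mean of 0.06. Of the remaining ADAMTS genes, ADAMTS7 was at -0.26 and ADAMTS13, which cuts von Willebrand factor, was at 0.22. The clones of ADAMTS18 were at -0.14 and 0.07, and among the ADAMTSL genes the clones of ADAMTSL5 were at -0.14 and 0.32, so that neither gene had 1 direction. ADAMTS7 has near-identical pseudogene copies, and its signal may be shared with them.

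For the inhibitors TIMP1 and TIMP2 the arrays gave opposite directions. In the brightest clone of TIMP1, Saos-2 was at a net intensity of 2963 on replicate 1 and of 2410 on replicate 2, against 1753 and 5434 for Saos-2-2. Saos-2-2 was thus lower on replicate 1 and higher on replicate 2, with log2 ratios of -0.53 and 1.19 (mean 0.33 ± 0.46, adjusted p = 0.689 in limma). A further clone gave -0.55 and 0.94, and another, read from 3 spots, gave 0.13 and -0.42, the opposite order.

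TIMP2, which with MMP14 takes part in activating MMP2, was at net intensities of 5241 and 4212 in Saos-2 on replicates 1 and 2, against 2959 and 7189 for Saos-2-2. The sign changed here too, at -0.58 and 0.83 (mean 0.12 ± 0.38, adjusted p = 0.861 in limma). Of its 5 clones 4 were below 0 on replicate 1, from -0.98 to -0.58, and above 0 on replicate 2, from 0.51 to 0.83. The other clone of TIMP2 was below 0 on both, at -0.81 and -0.37 (adjusted p = 0.154 in limma).

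The same change of sign was seen in 5 of the 9 measured osteoblast markers. Of all genes, 36.4% were below 0 on both arrays and 32.4% above 0 on both. COL1A1 was at -2.91 and 1.17, COL1A2 at -3.23 and 3.33, SPARC at -2.22 and 2.27, SPP1 at -0.91 and 4.20 and CDH11 at -0.74 and 0.78 on replicates 1 and 2. The other markers did not share it, with ALPL at -1.71 and -0.13, IBSP at -1.67 and -0.51, BGLAP at 0.16 and -0.41 and RUNX2 at 0.03 and -0.08. Of the 9 markers, 7 were higher on replicate 2 than on replicate 1 by at least 1 log2 unit. Their median signal on replicates 1 and 2 was 42.1 and 28.6 times background in Saos-2, and 7.8 and 37.5 times in Saos-2-2. Among the members, TIMP1, TIMP2 and ADAM10 differed by 1 log2 unit or more between the arrays, 3 of 47 (6.38%) against 4.26% of all genes. Whatever set the arrays apart in these markers, its part in the values of TIMP1, TIMP2 and ADAM10 was not tested. TIMP3, a matrix-bound inhibitor that also blocks ADAM17, was below 0 on both arrays, at -0.13 and -0.30 (mean -0.22 ± 0.11, adjusted p = 0.323 in limma), and a dimmer clone was at -0.27 and -0.50 (adjusted p = 0.184 in limma). A clone assigned to both TIMP4 and GPR161 was at 0.23 and 0.33 and cannot be credited to either.

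Agreement between clones varied. By the mean of each clone over the arrays, of 18 genes with at least 2 tested clones 7 had every clone below 0 (ADAM17, ADAMTS1, ADAMTS5, MMP17, MMP2, MMP9 and TIMP3), 3 had every clone above 0 (ADAM22, ADAMTS13 and ADAMTS2) and 8 had clones of both signs. On single arrays 1 clone each of MMP17 and ADAMTS13 and both clones of ADAMTS2 changed sign. Both clones of ADAMTS13 and 1 of MMP17 carried a mark in the column of failed wells. ADAM12 was the only one whose clones were over 1 log2 unit apart. No tested clone was under 1.5 times background in either line on both arrays, but 17 of 74 clones were under 3 times background in every channel, among them those of MMP13 and MMP7.

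Partners and substrates of the proteases were described from lists chosen for their function, none of whose members passed the adjusted threshold. Of 22 measured activators, cofactors and partners, 4 were lower and 1 was higher at an unadjusted p under 0.05, where 11.3% of all genes were lower and 11.9% higher. The median of the list was -0.02. Among those lower were genes of the plasminogen system, which activates several MMP precursors: the urokinase receptor PLAUR at -2.44 and -1.38, urokinase (PLAU) at -0.50 and -1.05 and tissue plasminogen activator (PLAT) at -0.44 on both arrays. The tetraspanin TSPAN17 was the one higher, at 0.38.

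Of 22 measured membrane proteins shed by ADAM10 or ADAM17, 7 were lower and 2 were higher at that threshold, beside the same shares of 11.3% and 11.9% of all genes. The median of the list was -0.17. The syndecan SDC1 was at -0.80, the receptor NOTCH1 at -0.70, the stress ligand MICA at -0.68, and SDC4 and PTPRF at -0.48. The adhesion receptor VCAM1 had log2 ratios of 1.47 and 1.56, and the growth factor precursor TGFA had 0.66 and 1.07. Shedding itself was not measured by these arrays.

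Of 22 measured matrix proteins cut by MMPs or ADAMTS proteases, 4 were lower and 5 were higher at that threshold, again beside 11.3% and 11.9% of all genes. The median of the list was 0.00. The microfibril protein FBN1 was at -1.98 and -1.60, COL3A1 at -0.72, the small proteoglycan DCN at -0.49 and BCAN at -0.35. On the higher side were fibronectin (FN1) at 0.97, COL2A1 at 0.81, COMP, a substrate of ADAMTS7, at 0.72, FBN2 at 0.53 and LTBP1 at 0.44. These substrate genes therefore lay on both sides of 0.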

How the data were processed

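The authors deposited, for each of 2 arrays, scanner output with the mean and median foreground and median local background intensity of both dyes, not normalized, and log2 ratios of background-subtracted medians after 1 scaling factor per array. Agilent Feature Extraction, without a version, is listed in the submitters' notes on processing. The authors' gene table was not used for values.

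In limma 3.58.1 (R 4.3.3), mean foregrounds were corrected by normexp (offset 50) and normalized by global loess within each array. Usable spots of a clone were averaged. A probe was tested when its foreground was at least 1.5 times background in at least 1 dye on both arrays. Mean log2 ratios of 34675 probes were tested against 0 with moderated variances and adjusted by Benjamini-Hochberg at 0.05. A gene was represented by its clone of highest mean intensity. Figures were drawn with matplotlib 3.10.9 (Python 3.11.15). On simulated data of this design with 34675 probes, 69, 191 and 195 of 200 probes were recovered at a true log2 ratio of 1, 2 and 3, with 40 false calls. The simulated noise was independent between probes and arrays, without shifts shared by genes on an array. In the data no probe passed, the smallest adjusted p being 0.106 in limma, so the recovery does not give the power here.

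Members, lists and tests were chosen with earlier results of these data known. Genes were named by a rule: an unadjusted p under 0.05 and a mean of 0.5 log2 units or more from 0, clones that differed in sign or by over 1 log2 unit, and a list of well-studied members; others named were chosen after their values were seen. The number of arrays limits the precision. Values of some other genes that this rule takes are omitted.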

Additional observations from a re-analysis of the deposited data

How the results depend on the processing

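The median log2 ratio of the members, -0.14 as reported, was -0.24 with plain background subtraction, -0.17 with the median foreground, -0.17 with median centring and -0.31 with the deposited log2 ratios, where the median of all genes was -0.13. On single arrays it ranged from -0.20 to -0.17. With the deposited log2 ratios 4 members passed an adjusted p of 0.05 in limma instead of 0, namely ADAM12 (-2.29), ADAMTS5 (-1.99), ADAMTS1 (-1.69) and MMP2 (-0.94), and 4.66% of all genes passed there. At an unadjusted p under 0.05, 16.5% of all genes were lower in that setting and 9.6% higher, against 11.3% and 11.9% in the main one. The cause was not tested.

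The sign turned for members near 0. MMP1 was at 0.01 with the median foreground and at 0.16 with print-tip loess, and MMP23B at 0.14 with print-tip loess and at 0.13 as the mean over clones. TIMP2 was at -0.12 with median centring, at -0.20 with the deposited log2 ratios, at -0.037 without the CGAP plates and at -0.17 as the mean over clones. ADAMTS18 was at 0.066 without the CGAP plates, and ADAMTSL5 at 0.09 as the mean over clones. On single arrays TIMP1 ranged from -0.53 to 1.19, TIMP2 from -0.58 to 0.83, MMP1 from -0.15 to 0.083, MMP23B from -0.17 to 0.11, ADAMTSL5 from -0.40 to 0.12 and ADAMTS18 from -0.31 to 0.028. The cause was not tested.

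Leaving out wells with a mark in the failed column was chosen after seeing the data. It left 41 members to test, and ADAM10 then had no tested clone. A single array gives values without a test. Each ratio already pairs both lines within an array, and with 1 group there was no further replicate block to fit.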
